A study of Oryza sativa with 6 samples.

Results

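The plasma membrane intrinsic proteins (PIPs), the aquaporins of the plasma membrane, were followed in rice roots over 2 varieties and 2 nitrogen supplies. The members are 9 loci named OsPIP1.1 to OsPIP1.3 and OsPIP2.1 to OsPIP2.6, taken by exact match of the locus in the array annotation, with every probe set of each. Of the 9 loci, 8 had a probe set of their own, with 17 probe sets in all, out of 25727 genes with a probe set of their own and 57194 probe sets that are not controls. All 17 probe sets passed the filter on low signal, and none of their readings lay below the 40th percentile of its array. The locus Os07g0448200, listed as OsPIP2.5, had only probe sets shared with other loci. The reference gene table gives the entry for it as a pseudogene and places the name OsPIP2;5 on the next gene, Os07g0448400. The values of Os07g0448400 are therefore given beside the members, chosen after they were seen.

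PIPs form channels through which water crosses the plasma membrane, and in roots they carry the part of water uptake that passes through cells. They assemble as tetramers, and PIP1 proteins of maize reach the plasma membrane better when a PIP2 partner is present. PIP genes of several plants are known to answer to nitrate supply, drought and abscisic acid, which makes them a common readout of how roots set their water permeability.

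The samples were roots of seedlings labelled 14 days old, grown in hydroponics, of Oryza sativa varieties Prasanna and Varadan. All were labelled as germinated for 7 days and then kept 10 days on Yoshida medium with nitrogen, after which they were moved to the same medium with supplemented N or without N; these days do not add up to 14 and no label settles it. The 6 arrays comprise, for each variety, a single one without nitrogen and a pair with nitrogen; second arrays lacking nitrogen are not analysed here. Whether the replicates were grown as separate cultures is not labelled, so p-values cover the spread of these samples alone, and that spread may be technical. Whole roots were sampled, so fewer cells of a type and less RNA per cell cannot be told apart.

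The nitrogen labels of 2 Varadan arrays are in doubt, which touches every nitrogen comparison of the PIP genes. OsNRT2.3, a nitrate transporter gene that serves as a check of nitrogen supply, read 11.31 log2 on the Prasanna array lacking nitrogen and 6.82 and 7.06 on its pair with nitrogen. The Varadan readings were 12.49 (without), 12.29 (with, replicate 1) and 7.78 (with, replicate 2), so that replicate 1 read like the array lacking nitrogen. The columns of the Varadan array without nitrogen and of replicate 1 with nitrogen are also exchanged between the deposited log2 table and the series matrix. The groups follow the log2 table. The 2 root markers, the silicon transporters OsNIP2.1 (Lsi1) and OsLsi2, read 13.57 to 15.21 log2 on the 6 arrays, and OsLsi2 was itself 0.94 log2 higher without nitrogen (unadjusted p = 0.00187, adjusted p = 0.123 in limma). The mean of the 4 green tissue markers with a probe set of their own, of 5 listed, ran from 11.01 to 12.59 in Prasanna and from 11.94 to 14.02 in Varadan, highest in both on the array lacking nitrogen. The mean of the 2 dividing-cell markers, OsPCNA and OsMCM2, was 10.11 and 9.95 without nitrogen (Prasanna, then Varadan) and 10.26 to 10.91 with it. OsMCM2 read -1.06 log2 without against with nitrogen (unadjusted p = 0.00324, adjusted p = 0.123 in limma) and OsPCNA -0.34. The part of these markers in the PIP results was not tested.

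The PIP signals were among the brightest on the arrays. The brightest probe set of each gene had its lowest position on any array at percentile 96.5 for OsPIP2.6. It was 99.48 for OsPIP2.4 and 99.55 or more for the remaining genes. A log2 value compares arrays within 1 probe set and not different genes, since probes differ in brightness. The with-nitrogen replicates of these 8 probe sets differed by a median of 0.074 log2 in Prasanna and 0.20 in Varadan, against 0.34 and 0.47 over all tested probe sets. The latter include far dimmer probe sets, and no value for equally bright ones is given. The smaller replicate differences are therefore not read as particular to the PIP genes.

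**Figure D1:**
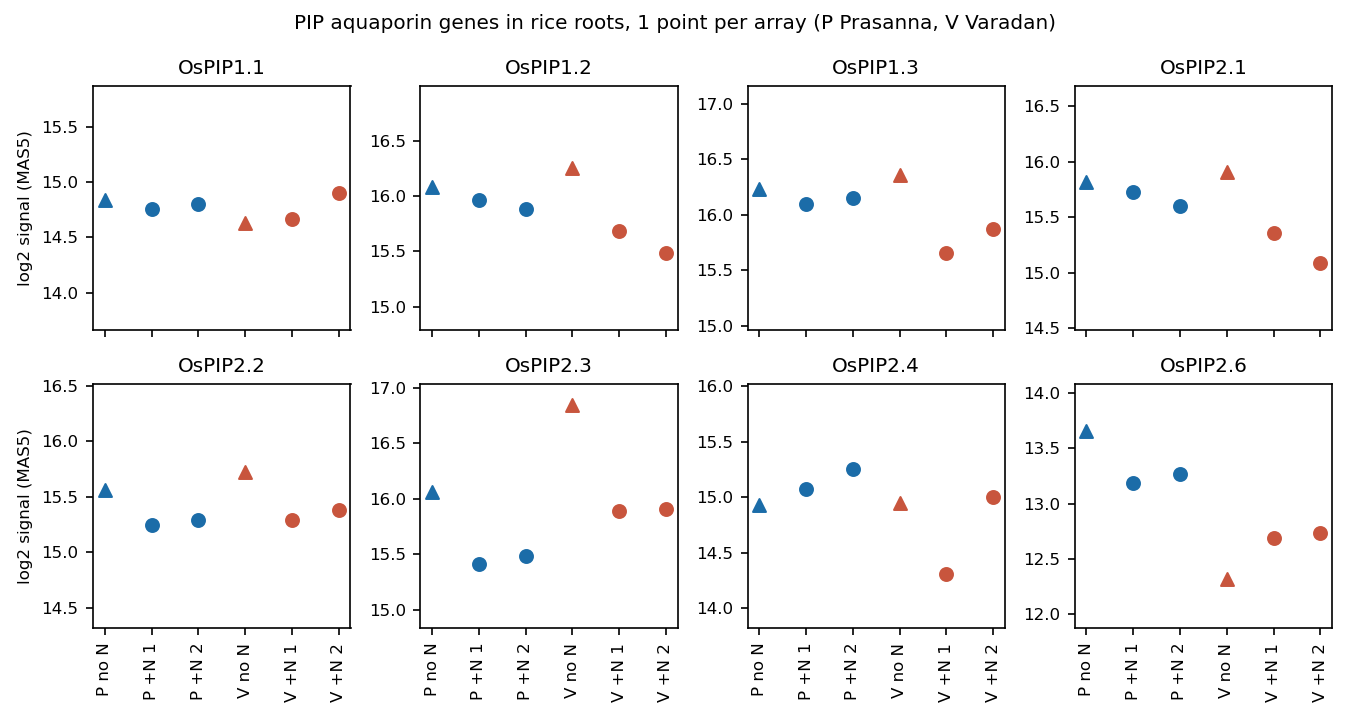
Log2 MAS5 signal (y axis, a 2.2 log2 window in every panel) of the brightest probe set of each of 8 PIP genes on the 6 arrays (x axis; P Prasanna in blue, V Varadan in red; triangles without nitrogen, circles with nitrogen). OsPIP2.3 stands at 16.85 on the Varadan array without nitrogen, above its other 5 arrays, and OsPIP2.6 reads lower on each Varadan array than on any Prasanna array.

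Each value below is given for the array without nitrogen first, then for replicates 1 and 2 with it. Within the PIP1 group, OsPIP1.1 (Os02g0666200) is known to need a PIP2 partner for strong water transport in frog oocytes. It read 14.84 log2 without nitrogen and 14.76 and 14.80 with it in Prasanna, and 14.63, 14.67 and 14.90 in the same order in Varadan. The groups overlapped and the whole range was 0.27 log2. OsPIP1.2 (Os04g0559700) read 16.08, 15.97 and 15.89 for Prasanna and 16.25, 15.68 and 15.49 for Varadan. Both arrays without nitrogen lay above all 4 with it, and the Varadan array without nitrogen was the highest. OsPIP1.3 (Os02g0823100), the water channel also named RWC3 and studied for drought avoidance in upland rice, read 16.23, 16.10 and 16.15 for Prasanna and 16.36, 15.66 and 15.87 for Varadan. The order by group was the same as for OsPIP1.2, with a narrower gap in Prasanna, where the array without nitrogen stood 0.11 log2 above the mean of the pair with it.

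In the PIP2 group, whose proteins form water channels on their own, OsPIP2.1 (Os07g0448800) read 15.82, 15.73 and 15.60 for Prasanna and 15.91, 15.36 and 15.09 for Varadan. OsPIP2.2 (Os02g0629200) read 15.57, 15.25 and 15.29 for Prasanna and 15.72, 15.29 and 15.38 for Varadan. For both genes the 2 arrays without nitrogen lay above the 4 with it. OsPIP2.3 (Os04g0521100), a PIP2 known mainly from roots, had the largest range of the 8 genes, 1.43 log2. It read 16.06, 15.41 and 15.48 for Prasanna and 16.85, 15.89 and 15.91 for Varadan. The replicate pairs with nitrogen differed by 0.068 log2 in Prasanna and 0.025 in Varadan, and each array without nitrogen stood above both pairs. OsPIP2.4 (Os07g0448100), known as one of the PIPs that pass arsenite in frog oocytes, read 14.93, 15.07 and 15.25 for Prasanna and 14.95, 14.31 and 15.00 for Varadan. Its low value was the Varadan array with nitrogen, replicate 1, 0.69 log2 under replicate 2. OsPIP2.6 (Os04g0233400), known for the same permeability, read 13.65, 13.19 and 13.27 for Prasanna and 12.32, 12.69 and 12.74 for Varadan. Without nitrogen it was the highest array of Prasanna and the lowest of Varadan.

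The first comparison asked how the PIP genes differed between roots without and with nitrogen over both varieties (2 arrays against 4). OsPIP1.2, OsPIP1.3, OsPIP2.1, OsPIP2.2 and, by the widest margin, OsPIP2.3 read higher on the arrays without nitrogen, while the estimates for OsPIP1.1, OsPIP2.4 and OsPIP2.6 lay between -0.045 and 0.031 log2. OsPIP2.3 was 1.72-fold higher without nitrogen (0.78 ± 0.14 log2, SE, adjusted p = 0.123 in limma). No PIP gene passed limma's test at an adjusted p of 0.05 (0 of 8, smallest adjusted p = 0.123, for OsPIP2.3), where 0% of the 34316 tested probe sets passed. At an unadjusted p under 0.05, 4 of the 8 genes and 6 of the 17 probe sets were higher without nitrogen and 0 lower, against 8.58% higher and 13% lower of all tested probe sets. This count of genes depends on the settings. In either direction it was 1 of 8 without a trend, without the filter and after quantile normalization. It was also 1 in the series matrix and with the dimmest probe set of each gene, and 5 with group means. OsPIP2.1 (0.42 ± 0.17), OsPIP1.2 (0.41 ± 0.16), OsPIP1.3 (0.35 ± 0.16) and OsPIP2.2 (0.34 ± 0.13) read 1.27- to 1.34-fold higher without nitrogen, with adjusted p-values of 0.191 to 0.261 in limma. OsPIP1.1 (95% interval of the difference -0.38 to 0.29 log2), OsPIP2.4 (-0.52 to 0.58) and OsPIP2.6 (-0.48 to 0.51) had intervals on both sides of 0. The difference was above 0 for 7 of the 8 genes, as for 49.9% of the tested probe sets, and the median of the 8 genes was 0.35 log2, beside -0.0023 over all tested probe sets. For 5 of the 8 genes (OsPIP1.2, OsPIP1.3, OsPIP2.1, OsPIP2.2 and OsPIP2.3) both arrays without nitrogen stood above all 4 with it, as they did for 14.1% of the tested probe sets.

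The bright end of the arrays, taken as the level passed by 1 in 1000 probe sets, was higher without nitrogen in both varieties. The PIP average was higher there too. From replicate 1 to replicate 2 with nitrogen, however, the level fell and the PIP average rose, again in both varieties. OsPIP1.2 and OsPIP1.3 lay above the level on every array, so it is not independent of the PIP genes. Its part in the PIP differences was not tested. The log2 signal passed by 1 in 1000 probe sets was 15.61, 15.52 and 15.49 in Prasanna (without nitrogen, then with it) and 15.76, 15.26 and 15.19 in Varadan, and the mean of the 8 PIP genes was 15.40, 15.18 and 15.22 and 15.37, 14.94 and 15.05 in the same order. After quantile normalization, which gives all arrays the same distribution, the median of the 8 genes was 0.013 log2, beside -0.042 over all tested probe sets, and for 0 of the 8 genes did both arrays without nitrogen stand above all 4 with it (12.9% of the tested probe sets). OsPIP2.3 then read 0.40 log2 higher without nitrogen; OsPIP2.1, OsPIP1.2, OsPIP1.3 and OsPIP2.2 read 0.13, 0.073, 0.024 and 0.0015, and OsPIP1.1 read -0.29. In the series matrix, where the 2 Varadan columns are exchanged, OsPIP2.3 read 0.061, OsPIP2.1 0.0072 and OsPIP1.2 -0.017. Without the Varadan array with nitrogen, replicate 1, OsPIP2.3 passed (0.75 log2, adjusted p = 0.0244 in limma). In that fit 1 of the 8 PIP genes passed, and 4625 of the 34316 tested probe sets did. On that array, where OsNRT2.3 read like the array lacking nitrogen, OsPIP1.2, OsPIP1.3, OsPIP2.1, OsPIP2.2 and OsPIP2.3 stood 0.43 to 0.96 log2 under the Varadan array without nitrogen. On replicate 2 the same genes stood 0.34 to 0.94 log2 under it.

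**Figure D2:**
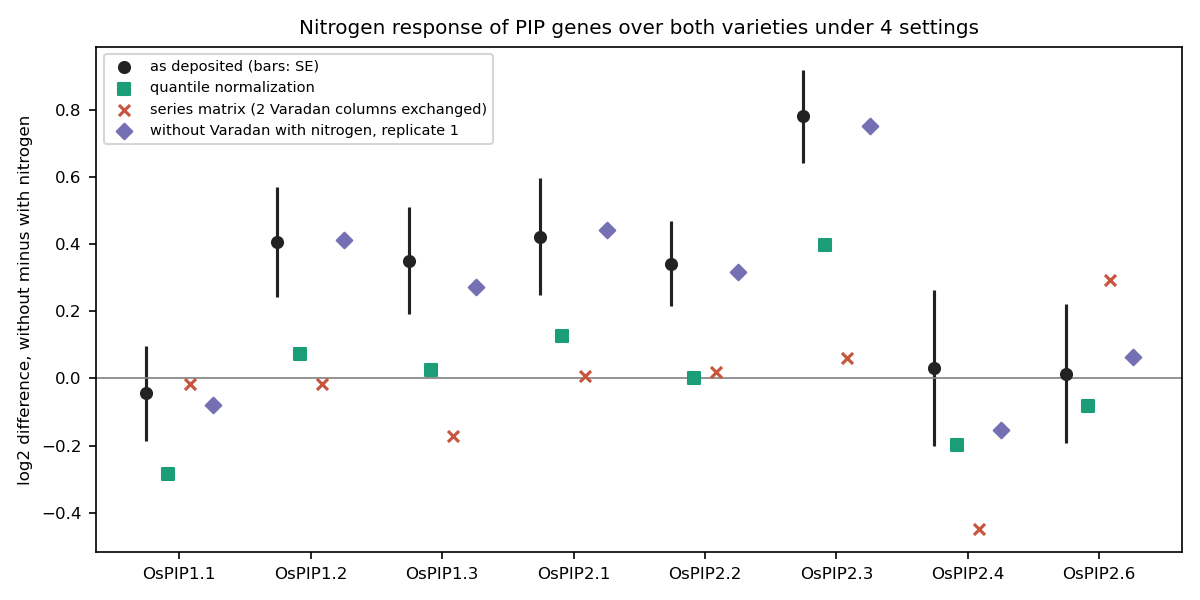
Log2 difference without minus with nitrogen (y axis) of 8 PIP genes (x axis) over both varieties, for the deposited values with the SE of the limma fit, for quantile-normalized values, for the series matrix and without the Varadan array with nitrogen, replicate 1. OsPIP2.3 keeps 0.40 log2 after quantile normalization, while OsPIP1.2, OsPIP1.3, OsPIP2.1 and OsPIP2.2 read 0.0015 to 0.13 there.

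Within each variety the response rests on 1 array without nitrogen, and no PIP gene passed in limma in Prasanna (0 of 8; 1 at an unadjusted p under 0.05) or in Varadan (0 of 8; 4 at an unadjusted p under 0.05), where 0% of the tested probe sets passed in each. At an unadjusted p under 0.05, 4.73% of all tested probe sets were higher without nitrogen in Prasanna and 4.47% in Varadan. The difference was above 0 for 7 of the 8 genes in Prasanna (median 0.15 log2, beside -0.015 over all tested probe sets, of which 49.2% were above 0) and for 6 of the 8 in Varadan (median 0.49 log2, beside 0.019 over all, of which 50.8% were above 0). OsPIP2.3 had an unadjusted p under 0.05 in both varieties and read 0.61 ± 0.17 log2 higher without nitrogen in Prasanna and 0.95 ± 0.17 in Varadan. OsPIP2.1 (0.69 ± 0.21), OsPIP1.2 (0.66 ± 0.19) and OsPIP1.3 (0.59 ± 0.19) were the other 3 in Varadan, and in Prasanna the same genes read 0.16, 0.15 and 0.11 log2. With the series matrix columns the Varadan difference of OsPIP2.3 read -0.49, that of OsPIP2.1 -0.14, that of OsPIP1.2 -0.19 and that of OsPIP1.3 -0.45, so their sign depends on which table is labelled right. Their size in Varadan depends on the normalization. After quantile normalization OsPIP2.3 read 0.26 log2 there, OsPIP2.1 0.15, OsPIP1.2 0.018 and OsPIP1.3 0.0095. The median of the 8 genes was then -0.0054 log2 in Varadan, beside -0.049 over all tested probe sets. In Prasanna it was 0.12, beside -0.020.

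The difference of the responses, Varadan minus Prasanna, was tested in the same model. No PIP gene passed in limma (0 of 8, smallest adjusted p = 0.925; 1 at an unadjusted p under 0.05), where 0% of the tested probe sets passed. OsPIP2.6 was that gene: it read 0.42 log2 higher without nitrogen in Prasanna and 0.39 log2 lower in Varadan, a difference of -0.81 ± 0.29 (unadjusted p = 0.037 in limma), and 2.65% of all tested probe sets had such a p in this direction. The difference for OsPIP2.6 was -0.77 after quantile normalization and -0.26 with the series matrix columns. OsPIP2.3 had a difference of 0.33 log2 with a 95% interval of -0.28 to 0.95, and its sign turned after quantile normalization (-0.27), at the less bright probe set (-0.14) and with the series matrix columns (-1.11). No order of the OsPIP2.3 responses of the varieties is read from these values.

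The variety comparison asked which PIP genes differed between Varadan and Prasanna over both supplies (3 arrays against 3). OsPIP2.3 read higher and OsPIP2.6 lower in Varadan, and the other 6 genes differed by -0.33 to 0.098 log2. The median of the 8 genes was -0.18 log2, beside -0.0067 over all tested probe sets. At the brightest probe set, 0 of 8 genes passed in limma, where 1.75% of the tested probe sets passed; 1 gene was higher and 1 lower in Varadan at an unadjusted p under 0.05, against 5.31% and 5.41% of the tested probe sets. OsPIP2.6 was 1.73-fold lower in Varadan (-0.79 ± 0.20 log2, adjusted p = 0.148 in limma), with means of 13.37 ± 0.25 in Prasanna and 12.58 ± 0.23 in Varadan (SD, n = 3 each). Its 3 Varadan arrays all lay below the 3 Prasanna arrays, as they did for 6.8% of the tested probe sets, and this separation was also present after quantile normalization (-0.77). Without either of the arrays lacking nitrogen the difference of OsPIP2.6 was -0.52, and without any other single array it was -0.84 to -0.89. OsPIP2.3 was 1.48-fold higher in Varadan (0.56 ± 0.13 log2, adjusted p = 0.119 in limma), with means of 15.65 ± 0.36 and 16.21 ± 0.55 (SD, n = 3 each). The arrays of the varieties overlapped for OsPIP2.3, since the Prasanna array without nitrogen lay above both Varadan arrays with nitrogen. At the same supply each Varadan array lay above its Prasanna counterparts by the labels of the log2 table. By those of the series matrix the Varadan array without nitrogen is the one at 15.89, below the Prasanna array without nitrogen at 16.06. After quantile normalization OsPIP2.3 passed (0.71 log2, adjusted p = 0.0343 in limma), where 606 of all tested probe sets passed. At this probe set it passed under no other setting. The adjusted p in limma was 0.139 with group means, 0.403 without the filter, 0.427 without a trend and 0.795 in the series matrix. It was also above 0.05 with any array left out.

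The other probe set of OsPIP2.3 passed in the variety comparison on the deposited values. It read 14.87, 13.48 and 14.11 log2 in Prasanna (without nitrogen first) and 15.85, 14.86 and 14.99 in Varadan. Varadan stood 2.12-fold higher (1.08 ± 0.19 log2, adjusted p = 0.0442 in limma), and the varieties overlapped at a single reading, the Varadan replicate 1 with nitrogen, just under the Prasanna array that lacked it. The nitrogen difference at this probe set was 1.01 ± 0.20 log2 (adjusted p = 0.123 in limma). Both probe sets of OsPIP2.3 gave the same direction in both comparisons, with the larger values at the less bright one. The call at the less bright probe set rests on the settings: its variety difference was 0.89 to 1.25 log2 with any array left out, and the adjusted p in limma was above 0.05 without each array except the Varadan replicate 1 with nitrogen. It was 0.239 without a trend, 0.0698 without the filter, 0.147 with group means and 0.509 in the series matrix, and 0.0391 after quantile normalization.

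**Figure D3:**
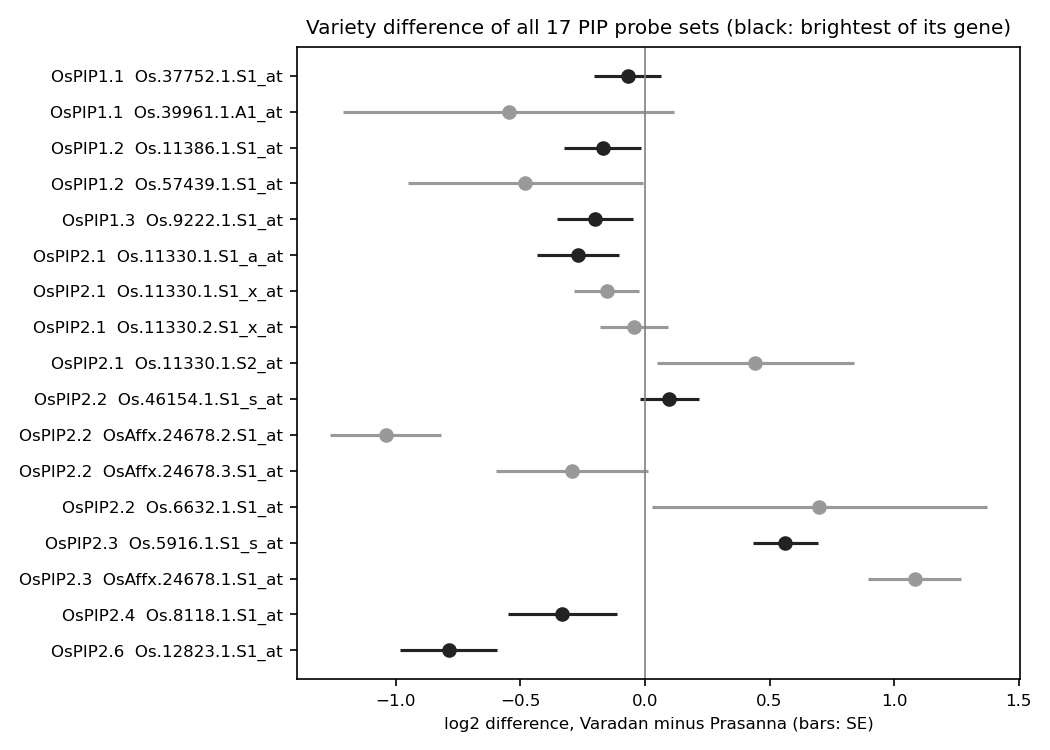
Log2 difference Varadan minus Prasanna (x axis) with the SE of the limma fit for all 17 probe sets of 8 PIP genes (y axis), the brightest of each gene in black and the others in grey. Both OsPIP2.3 probe sets lie above 0 (0.56 and 1.08) and OsPIP2.6 lies at -0.79, while the 4 OsPIP2.2 probe sets run from -1.04 to 0.70.

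Probe sets of other PIP genes agreed in part, and the dim ones spread more. The 3 bright probe sets of OsPIP2.1 read 0.42, 0.36 and 0.33 log2 higher without nitrogen, and the dimmest of the 4 read 0.55 ± 0.42. Between Varadan and Prasanna the same probe sets differed by -0.27, -0.15, -0.044 and, at the dimmest, 0.44 ± 0.40. Those of OsPIP2.2 read 0.34, 0.13, 0.39 and 1.36 log2 higher without nitrogen, the brightest first. For OsPIP2.2 one dim probe set differed by -1.04 ± 0.22 log2 between Varadan and Prasanna (adjusted p = 0.0931 in limma), while the bright one differed by 0.098 ± 0.12. It read 9.61, 9.51 and 9.88 log2 in Prasanna and 8.85, 8.36 and 8.67 in Varadan, without overlap. All Varadan arrays lay below all Prasanna arrays for 2 of the 17 PIP probe sets and for 6.8% of the tested probe sets. The dim probe set of OsPIP1.1 read 9.15, 8.37 and 7.76 for Prasanna and 8.93, 8.73 and 5.97 for Varadan. Its nitrogen difference was 1.34 ± 0.71, beside -0.045 ± 0.14 at the bright one. The dim probe set of OsPIP1.2 read between 6.32 and 7.74 log2 and differed by -0.064 ± 0.50. Probe sets ending in _s_at, which include the bright ones of OsPIP2.2 and OsPIP2.3, and in _x_at hold probes that can match related transcripts, so that PIP genes of near-identical sequence may not be fully separated here.

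OsPIP2.4, Os07g0448200, Os07g0448400 and OsPIP2.1 are 4 consecutive genes of chromosome 7 in the reference table. The probe set of Os07g0448400 alone, the gene to which that table gives the name OsPIP2;5, read 14.32, 14.11 and 15.08 log2 in Prasanna and 14.33, 13.97 and 14.53 in Varadan. Its nitrogen difference was -0.098 ± 0.30 and its variety difference -0.23 ± 0.28. The 2 probe sets shared by OsPIP2.4, Os07g0448200 and Os07g0448400 had nitrogen differences of 0.18 ± 0.23 and 0.20 ± 0.28 log2. Replicate 2 of Prasanna with nitrogen was the highest array for OsPIP2.4, for Os07g0448400 and for both shared probe sets. That array held the highest value of 13.1% of the tested probe sets. The shared probe sets are assigned to these same genes, so they do not count as separate ones. OsPIP2.1, the fourth gene in the row, was highest on the Varadan array without nitrogen instead.

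The 8 genes varied in different ways over the 6 arrays. Of the 28 gene pairs, 20 had a Pearson r above 0 and 4 above 0.7, with a range of -0.59 to 0.99. Each r rests on 6 arrays, whose bright end also differs in level. Counts over pairs of other probe sets are not given, so these are not read as particular to the PIP genes. OsPIP1.2 and OsPIP2.1 had the highest r (0.99), followed by OsPIP2.2 and OsPIP2.3 (0.93), OsPIP1.2 and OsPIP1.3 (0.86) and OsPIP1.3 and OsPIP2.1 (0.83). OsPIP2.3 and OsPIP2.6 had the lowest (-0.59). The Varadan array without nitrogen held the highest value of 5 of the 8 genes, and it held the highest value of 21.9% of the tested probe sets. Among 1763 tested probe sets of other named genes, the patterns most like the mean of the 8 genes were those of OsMTP8 (r = 0.95), OsARGOS (0.95), OsCIPK16 (0.94), OsMT-I-2c (0.93) and OsCHS1 (0.93). Those most like OsPIP2.3 were OsMRL7 (0.98), OsIRT1 (0.98), OsCAM61 (0.98), OsSNAT2 (0.96) and OsZHD2 (0.96). Of the 1763, 1 had an r above 0.95 with the mean and 6 with OsPIP2.3. These are the highest values of a search over 6 arrays, and a shared regulation was not tested.

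The other aquaporins on the array were compared with the PIP genes by counts. They comprise the tonoplast (TIP), nodulin-like (NIP) and small basic (SIP) intrinsic proteins and the PIP2 genes OsPIP2.7 and OsPIP2.8, which are outside the member list. Of 21 such genes, 20 were represented by an unshared probe set and 19 of these were tested. At the brightest probe set of each, 0 of 19 passed in limma in the nitrogen comparison; 4 were higher and 1 lower without nitrogen at an unadjusted p under 0.05, with a median of 0.13 log2. In the variety comparison 0 of 19 passed, with 4 higher and 1 lower in Varadan at an unadjusted p under 0.05 and a median of 0.16. OsPIP2.7 had the largest nitrogen difference of the 19, 2.15 ± 0.48 log2 higher without nitrogen (adjusted p = 0.123 in limma). It read 9.36, 7.42 and 7.89 for Prasanna and 11.40, 9.64 and 7.98 for Varadan, so that replicate 1 with nitrogen in Varadan lay above the Prasanna array without it. OsTIP4.1, a tonoplast aquaporin, was 1.24 ± 0.20 higher without nitrogen with no overlap, and OsTIP1.2 read -1.38 ± 0.63. Both arrays without nitrogen lay above all those with it for 2 of the 19 and for 14.1% of the tested probe sets. At the brightest probe sets the largest differences in the variety comparison were those of OsTIP3.2, of which 2 readings lay below the 40th percentile of their array, OsPIP2.7 (1.45 ± 0.45 log2) and OsPIP2.8, of which 1 reading did. Among their less bright probe sets 1 passed in that comparison, of OsTIP2.1, a tonoplast aquaporin, named here after its values were seen. It read 13.64, 12.05 and 13.32 log2 for Prasanna and 1.45, 4.08 and 4.76 for Varadan (adjusted p = 0.00268 in limma), the 3 Varadan readings all below the 40th percentile of their array. The other probe sets of OsTIP2.1 differed by 0.17 ± 0.19 log2 at the brightest and by 1.76 ± 0.39 at the next, the opposite direction.

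**Figure D4:**
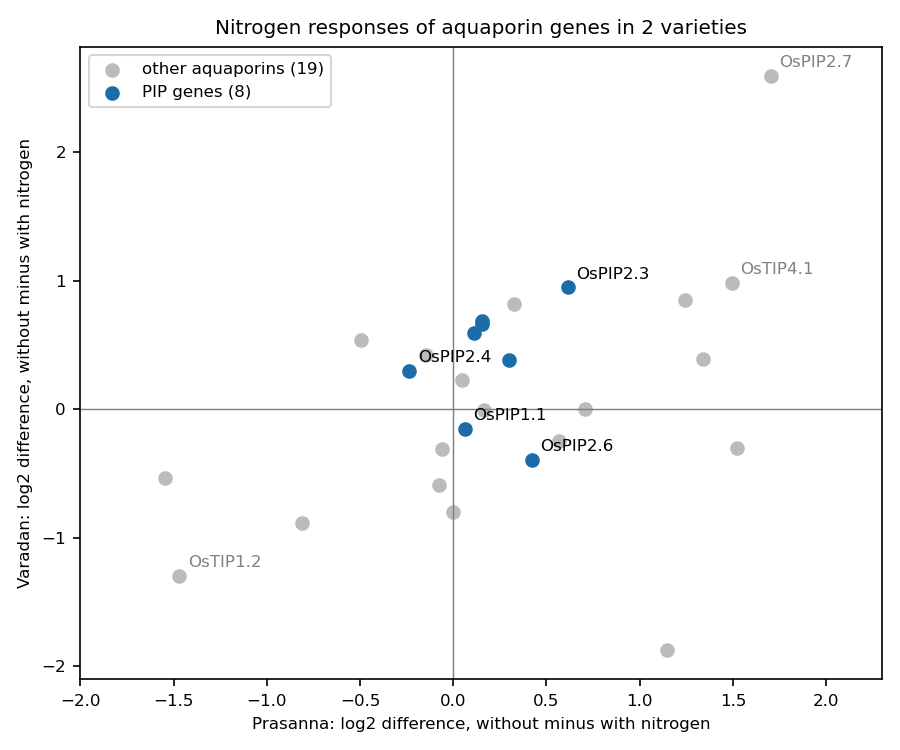
Log2 difference without minus with nitrogen in Prasanna (x axis) and in Varadan (y axis), 1 point per gene, for 8 PIP genes (blue) and 19 other aquaporin genes (grey); each value is 1 array against the mean of 2, and 3 of the grey genes have readings below the 40th percentile of an array. OsPIP2.3 lies at 0.61 and 0.95, OsPIP2.6 at 0.42 and -0.39, and OsPIP2.7 lies outside the range of the PIP members in both varieties.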

How the data were processed

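Root RNA of 6 samples was measured on Affymetrix rice arrays, 1 array each. The authors deposited log2 signals (MAS5, per the submitters' processing notes) and, in the series matrix, the linear intensity. With 2% trimmed from either end, each array's linear mean came to 500, so the arrays had been scaled to one another. Columns agreed by name within 1e-06 log2 for 4 arrays, and 2 Varadan columns were exchanged. The MAS5 version is not given in the sources used here.

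Of 57381 probe sets, 187 controls were left out, and the 34316 with a mean at or above the 40th percentile were tested. Differences were fitted over all of them with limma 3.58.1 in R 4.3.3 (lmFit, eBayes with trend), two-sided, with Benjamini-Hochberg adjustment at 0.05. The nitrogen and variety comparisons used an additive model, the others 1 mean per variety and supply, in which each lone array is assumed to vary like the replicate pairs. Errors are SE of the fit unless SD is named. The script was tested on simulated data. A gene's value is that of its probe set with the highest mean. Named were all members, other aquaporins past a test or otherwise the 3 with the largest difference in the nitrogen and in the variety comparison, and the 5 genes with the highest Pearson r to the members' mean and to the member with the largest range. Names of 8 of the 9 members and 16 of the 21 other aquaporins matched a synonym in the reference table (assembly ASM3414082v1), which was used for names and neighbours only. The members and lists were chosen with earlier results of these data known. Alternatives were the series matrix, no trend, no filter, quantile normalization, the dimmest probe set of a gene, the group means model and each array left out. The number of arrays limits the precision.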

Additional observations from a re-analysis of the deposited data

How the results depend on the processing

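No paired analysis was possible because the labels number just 1 replicate of the pairs with nitrogen. At the brightest probe set of each gene, no PIP gene passed on the deposited values in any of the 5 comparisons. The count became 1 (OsPIP2.3) in the nitrogen comparison without the Varadan array with nitrogen, replicate 1 (0 to 1 over the 6 arrays left out in turn), and 1 in the variety comparison under quantile normalization and with the dimmest probe set of each gene; in the other fits it was 0. Over all tested probe sets, 601 passed in the variety comparison, with 176 (no trend) to 826 (without the Varadan array with nitrogen, replicate 1) over the other settings; in the nitrogen comparison 0 passed, and 4625 without that array. The variety call at the less bright OsPIP2.3 probe set was kept under quantile normalization and without that array, and lost under the other 9 settings.

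In the series matrix the nitrogen difference over both varieties turned to -0.017 (OsPIP1.2), -0.17 (OsPIP1.3), -0.45 (OsPIP2.4). There the Varadan response turned to -0.19 (OsPIP1.2), -0.45 (OsPIP1.3), -0.14 (OsPIP2.1), -0.26 (OsPIP2.2), -0.49 (OsPIP2.3), -0.67 (OsPIP2.4), 0.16 (OsPIP2.6). There the difference of the responses turned to -0.34 (OsPIP1.2), -0.56 (OsPIP1.3), -0.30 (OsPIP2.1), -0.56 (OsPIP2.2), -1.11 (OsPIP2.3), -0.43 (OsPIP2.4). Under quantile normalization the nitrogen difference over both varieties turned to -0.20 (OsPIP2.4), -0.081 (OsPIP2.6). There the variety difference turned to 0.029 (OsPIP1.1), 0.012 (OsPIP1.2). There the Prasanna response turned to -0.079 (OsPIP1.1). There the Varadan response turned to -0.17 (OsPIP2.2), -0.020 (OsPIP2.4). There the difference of the responses turned to -0.11 (OsPIP1.2), -0.029 (OsPIP1.3), -0.35 (OsPIP2.2), -0.27 (OsPIP2.3). With the dimmest probe set of a gene the nitrogen difference over both varieties turned to 1.34 (OsPIP1.1), -0.064 (OsPIP1.2). There the variety difference turned to 0.44 (OsPIP2.1). There the Prasanna response turned to -0.21 (OsPIP2.1). There the Varadan response turned to 1.59 (OsPIP1.1), -0.57 (OsPIP1.2). There the difference of the responses turned to 0.50 (OsPIP1.1), -1.02 (OsPIP1.2), -1.21 (OsPIP2.2), -0.14 (OsPIP2.3). With 1 array left out in turn, the values that changed sign ran from -0.15 to 0.062 for OsPIP1.1 in the nitrogen difference over both varieties, from -0.16 to 0.0017 for OsPIP1.1 in the variety difference, from -0.046 to 0.64 for OsPIP2.4 in the Varadan response, from -0.24 to 0.30 for OsPIP2.4 in the nitrogen difference over both varieties, from -0.39 to 0.42 for OsPIP2.6 in the nitrogen difference over both varieties. Without an array lacking nitrogen, the nitrogen difference is that of the other variety alone. The fits without a trend, without the filter and with group means changed no sign. At an adjusted p of 0.05 in limma they changed no call other than that of the less bright OsPIP2.3 probe set. The cause of these changes was not tested beyond the construction of each setting.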
